A study of Mus musculus with 6 samples.

Results

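Cytoplasmic poly(A)-binding proteins and the deadenylases that shorten poly(A) tails were followed in murine erythroleukemia (MEL) cells during DMSO-induced differentiation. The group was set by name and holds 10 genes of the 23896 genes with a symbol in the count data, namely the poly(A)-binding proteins Pabpc1 and Pabpc4, the deadenylase subunits Pan2, Pan3, Cnot6, Cnot6l, Cnot7 and Cnot8, the adaptor Tob1 and the deadenylase Parn. Each gene was represented by its RefSeq transcript with the highest mean count, and all 10 were found and tested.

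The libraries came from MEL cells, a mouse line transformed by a leukemia virus and arrested at an early erythroid stage. The cells were cultured without inducer (day 0) or with 2% DMSO for 2 d (day 2) or 4 d (day 4), and the labels name no other agent or genotype. Each day had 2 biological replicates of the same line, giving 6 libraries of poly(A)-selected RNA (TruSeq stranded mRNA-seq). A single transformed line grown in suspension limits them as a model of erythroid cells. The edgeR p-values set a change against the spread between these replicates, as estimated over the 3 days together and across transcripts. With 2 libraries per day, the spread of a single gene is poorly known.

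Counts summed over all transcripts ranged from 35294930 to 53899476 per library. Transcripts of the same gene often had near-equal counts, so a read can enter this sum repeatedly. Relative to this sum plus themselves, reads on no transcript were 50.5% and 54.1% at day 0, 53.8% and 52.7% at day 2 and 58.1% and 58.4% at day 4. As a share of reads they would be higher, and their part in the results was not tested. All 10 erythroid markers were detected, and their summed level went from 1170 to 1218 CPM (counts of a transcript relative to the TMM-scaled library size) at day 0 to between 17890 and 20080 CPM at day 4. The largest counts at day 4 were those of Hba-a1 (353472 and 518658) and Hbb-bs (179353 and 230886). Klf1 had 7840 and 15348 counts at day 0 and 6233 and 7743 at day 4, so the sum does not show that each marker rose. Markers of myeloid, lymphoid and fibroblast cells summed to at most 2.82 CPM in any library. Mast cell markers (4 genes) summed to 3.95 to 4.43 CPM at day 0 and 0.224 to 0.416 CPM afterwards, with Tpsb2 at 0 counts in every library, and their part in the results was not tested.

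A poly(A) tail protects an mRNA from decay and supports its translation, both through the poly(A)-binding protein that coats it. Removal of the tail usually begins mRNA decay. In the textbook order, PAN2-PAN3 trims long tails first and the CCR4-NOT complex, which carries a nuclease of the CCR4 type (CNOT6 or CNOT6L) and one of the CAF1 type (CNOT7 or CNOT8), shortens them further. TOB1 bridges poly(A)-binding protein and the CAF1 nuclease, and PARN is a separate deadenylase best known for trimming small noncoding RNAs. Late erythroid cells strongly reduce transcription, and what they translate then comes largely from mRNAs already made.

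By day 2, transcripts of 5 of the 10 genes rose (Pan3, Cnot6l, Cnot7, Tob1 and Parn) and Pan2 fell, whereas Pabpc1, Pabpc4, Cnot6 and Cnot8 did not pass the threshold. By day 4 the 5 risen transcripts were 1.40-fold to 2.01-fold above day 0, and Pabpc4 was the only gene called lower. Calls are at a Benjamini-Hochberg adjusted p below 0.05 in edgeR's quasi-likelihood test, adjusted over 18351 transcripts. Among all 12381 tested genes, 31% were higher and 31.5% lower at day 2 against day 0, compared with 5 higher and 1 lower of these 10. Scaled by total counts in place of TMM, 5001 genes were higher and 2881 lower at that step, against 3841 and 3902, with the same 5 and 1 counts among the 10. For day 4 against day 2 the background was 14% higher and 16.2% lower, and 1 of the 10 genes was called in each direction. For day 4 against day 0 it was 35.5% higher and 36.4% lower, and 5 of the 10 genes were higher and 1 lower. The 10 genes had a median log2 fold change of 0.27 at day 2 against day 0, -0.04 at day 4 against day 2 and 0.16 at day 4 against day 0, beside 0.01, -0.01 and -0.02 over all tested genes. The comparisons share libraries, so their calls are not independent. In bulk RNA, a change in the level of a transcript per cell and a change in the share of cells that carry it cannot be told apart. CPM are relative to the counts of each library, so a rise or fall here is not a measure of transcripts per cell.

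**Figure D1:**
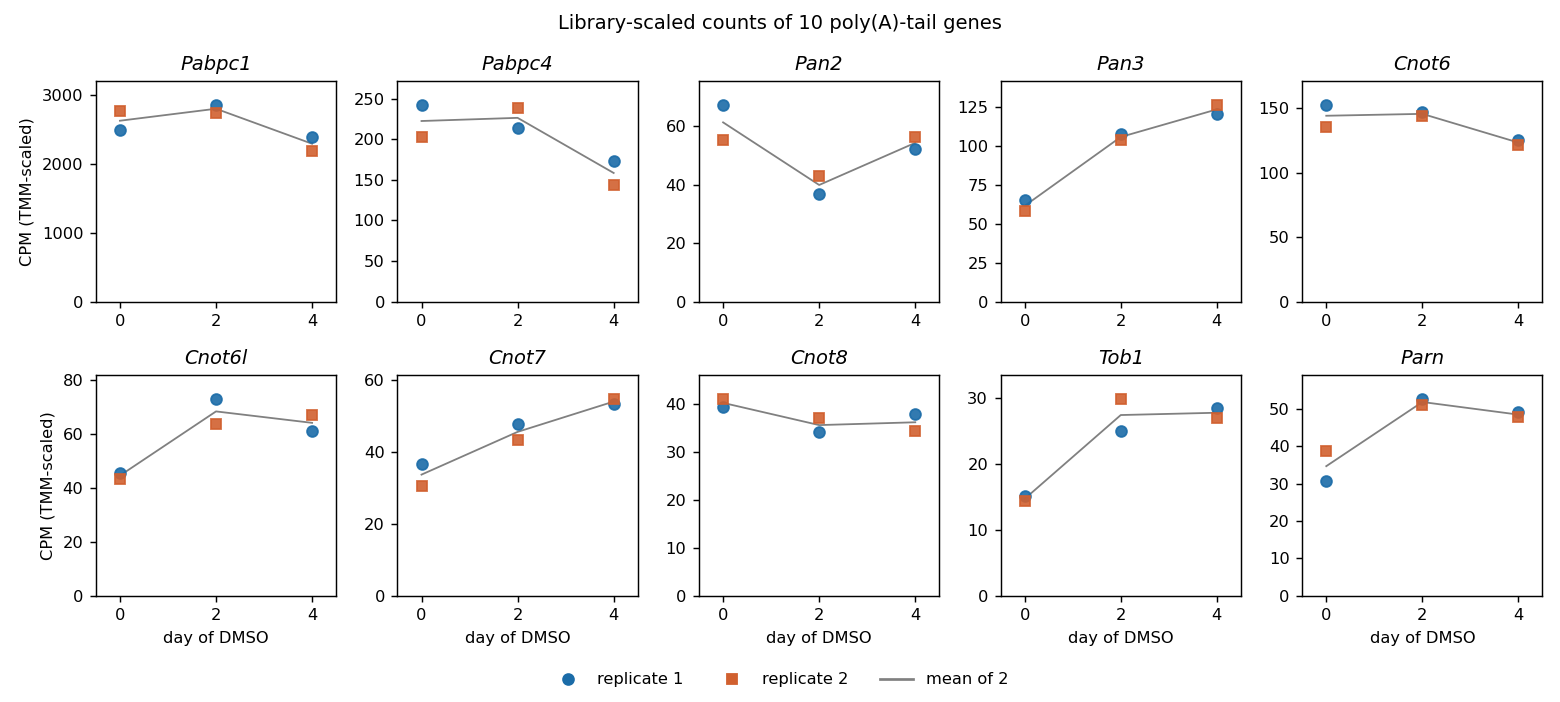
CPM with TMM-scaled library sizes (y axis, from 0) on days 0, 2 and 4 of DMSO (x axis) for the 10 genes, with a point for each of the 2 replicates and a line through their mean. Pan3, Cnot6l, Cnot7, Tob1 and Parn lie higher on days 2 and 4 than on day 0, Pan2 dips on day 2, and Pabpc4 is lowest on day 4.

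Pabpc1 encodes the main cytoplasmic poly(A)-binding protein. Its transcript (NM_008774, chromosome 15 from 36595658 to 36609581 of GRCm38.p6, given here and for the other genes as the span of the RefSeq gene) was at 2486 and 2758 CPM in the day 0 libraries, 2855 and 2737 CPM at day 2, and 2390 and 2187 CPM at day 4. The day 4 libraries were the lowest of the 6, while those of days 0 and 2 overlapped. None of its log2 fold changes was called, at 0.09 for day 2 against day 0 (standard error, SE, 0.14, edgeR adjusted p = 0.579), -0.29 for day 4 against day 2 (SE 0.14, edgeR adjusted p = 0.137) and -0.20 from day 0 to day 4 (SE 0.14, edgeR adjusted p = 0.222). The step from day 2 to day 4 lay near the threshold, since DESeq2 called it with an adjusted p of 0.0419 and an edgeR fit of only those days gave 0.037. Pabpc1 took between 0.217% and 0.304% of all transcript counts in a library.

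Pabpc4 encodes a second cytoplasmic poly(A)-binding protein, first described as inducible in activated T cells. Its transcript (NM_130881, chromosome 4 from 123282303 to 123298925) had 243 and 202 CPM at day 0, 214 and 238 CPM at day 2, and 173 and 144 CPM at day 4. The libraries of days 0 and 2 overlapped, and both day 4 libraries lay below them. Day 2 against day 0 gave a log2 fold change of 0.03 (SE 0.13, edgeR adjusted p = 0.88). It then fell by 0.51 on the log2 scale from day 2 to day 4 (SE 0.13, edgeR adjusted p = 0.0154), which left day 4 at 0.712 times day 0 (log2 fold change -0.49, SE 0.13, edgeR adjusted p = 0.00676). Without the second day 4 library, at 144 CPM, the log2 fold change against day 0 was -0.37 and no longer called (edgeR adjusted p = 0.0829). The fall from day 2 to day 4 was not called without either day 2 library (edgeR adjusted p = 0.0789 and 0.138) or without the second day 4 library (0.165). The other RefSeq transcript of Pabpc4 (NM_148917) differed by up to 13.5% in count. When the Pabpc4 transcript was broken into 31-base words, 9 other GENCODE genes held 10% or more of these, and Gm10110 held 80.5%, so the level of Pabpc4 is uncertain by the reads such copies exchange. The same holds to a lesser degree for Pabpc1, with 20.5% of its words in Gm16580 and 17.3% in Gm8276, and for Cnot8, with 15.2% in Gm18860.

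Pabpc2, Pabpc4l, Pabpc5 and Pabpc6 had 3, 0, 0 and 1 counts over all 6 libraries and were not tested. Of the 4 tested genes outside the group (Pabpc1l, Pabpn1, Pabpn1l and Zc3h14), Pabpn1l was higher on day 4 than on day 0, with 9 and 9 counts at day 0 against 40 and 67 at day 4 (log2 fold change 2.69, SE 0.34, edgeR adjusted p = 3.14e-05). Pabpn1, which coats new tails in the nucleus, was lower at day 2 than at day 0 (log2 fold change -0.39, edgeR adjusted p = 0.00807) and higher at day 4 than at day 2 (0.35, edgeR adjusted p = 0.0309).

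The subunits of PAN2-PAN3 went in opposite directions. Pan2 encodes the catalytic nuclease, and its transcript (NM_001252326, chromosome 10 from 128303333 to 128321358) was at 67.4 and 55.3 CPM at day 0, 37.0 and 42.9 CPM at day 2, and 52.2 and 56.5 CPM at day 4. Both day 2 libraries were below all others, and the libraries of days 0 and 4 overlapped. Pan2 fell to 0.651 times its day 0 level by day 2 (log2 fold change -0.62, SE 0.13, edgeR adjusted p = 0.00151). It rose again from day 2 to day 4 by a log2 fold change of 0.44 (SE 0.13, edgeR adjusted p = 0.0232), and day 4 differed from day 0 by -0.17 (SE 0.13, edgeR adjusted p = 0.237). The last of these rested on the day 0 libraries, being -0.03 without the first (edgeR adjusted p = 0.818) and -0.32 and called without the second (edgeR adjusted p = 0.0178). The late rise was not called with scaling by total counts (0.36, edgeR adjusted p = 0.057), nor when any single library of day 2 or day 4 was left out (0.34 to 0.55, edgeR adjusted p = 0.0585 to 0.244).

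Pan3 encodes the subunit that binds poly(A)-binding protein and brings PAN2 to the tail. Its transcript (NM_028291, chromosome 5 from 147426208 to 147548501) had 65.0 and 58.2 CPM at day 0, 108 and 104 CPM at day 2, and 121 and 127 CPM at day 4. The 3 days did not overlap. Pan3 showed the largest rise among the 10 genes for day 4 against day 0, 2.01-fold (log2 fold change 1.01, SE 0.11, edgeR adjusted p = 6.99e-06). Most of it was present at day 2 (0.78, SE 0.10, edgeR adjusted p = 8.17e-05), and the step from day 2 to day 4 was not called (0.22, SE 0.10, edgeR adjusted p = 0.125), except in fits of only those days or without either day 0 library (edgeR adjusted p = 0.0437 to 0.0455). Within a library, the log2 ratio of Pan2 to Pan3 counts went from 0.05 and -0.07 at day 0 to -1.54 and -1.28 at day 2 and -1.21 and -1.17 at day 4. All later libraries therefore had fewer Pan2 than Pan3 counts, whereas the counts at day 0 were near equal. The shift of -1.18 from day 0 to day 4 had an exact two-sided permutation p of 0.333, the smallest that 2 against 2 libraries allow.

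Pan2 and Pan3 changed in opposite directions by day 2, and the 250 bases upstream of a RefSeq transcript start are shown to set their promoters side by side (RefSeq, GRCm38.p6, plus strand, written 5′ to 3′). The first lies at chr10:128303085-128303334 and the second at chr5:147429906-147430155, and neither window overlaps a GENCODE exon, though that of Pan3 lies inside the span of the gene.
Pan2: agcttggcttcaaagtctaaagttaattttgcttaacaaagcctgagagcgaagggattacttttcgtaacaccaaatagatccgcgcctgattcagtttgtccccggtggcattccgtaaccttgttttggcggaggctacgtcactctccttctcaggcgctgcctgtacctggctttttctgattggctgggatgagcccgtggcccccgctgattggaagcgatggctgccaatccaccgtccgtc
Pan3: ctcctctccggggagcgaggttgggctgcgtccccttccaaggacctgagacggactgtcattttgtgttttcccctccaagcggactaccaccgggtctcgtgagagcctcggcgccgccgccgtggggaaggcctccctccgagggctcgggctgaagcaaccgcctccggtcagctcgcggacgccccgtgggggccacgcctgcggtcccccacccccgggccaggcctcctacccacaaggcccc

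Of the Pan2 window, 52.4% were G or C, equal to the median of 52.4% over 32851 RefSeq promoters, and of the Pan3 window 71.2%, above the upper quartile of 61.2%. Letters searched on both strands were the GATA words AGATAA or AGATAG and TGATAA or TGATAG, the E-box CACGTG, the GC box GGGCGG and the TATA box TATAAA, which occur in 26.5%, 6.02%, 32.7% and 12.4% of these promoters. Neither Pan2 nor Pan3 held any of them. Among the other genes with a listed promoter that rose by day 2, G or C made up 52.0% in Parn and 73.6% in Tob1. In Cnot6l they made up 68.4% to 82.4% over its windows. Of those not called at day 2, Cnot6 was at 70.8%, Pabpc4 at 58.8% and Cnot8 at 55.6% to 69.2% over its windows.

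**Figure D2:**
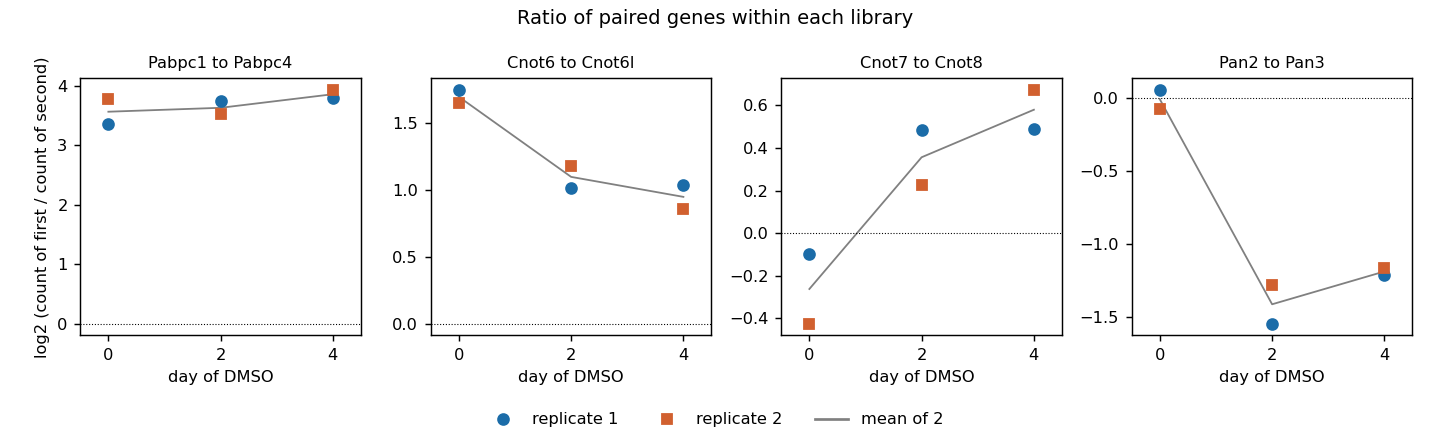
Log2 ratio of the counts of 2 related genes in the same library (y axis) by day of DMSO (x axis), with a point per replicate, a line through the mean of 2 and a dotted line at equal counts. The ratio of Cnot6 to Cnot6l and that of Pan2 to Pan3 lie lower on days 2 and 4 than on day 0, that of Cnot7 to Cnot8 lies higher, and that of Pabpc1 to Pabpc4 moves by 0.29 from day 0 to day 4.

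The CCR4-type nucleases also differed within their pair. Cnot6 (NM_212484, chromosome 11 from 49671497 to 49713401) was at 153 and 136 CPM at day 0, 147 and 144 CPM at day 2, and 125 and 121 CPM at day 4. Days 0 and 2 overlapped and day 4 was lowest in both libraries. None of the Cnot6 comparisons was called, with log2 fold changes of 0.01 for day 2 against day 0 (SE 0.11, edgeR adjusted p = 0.911), -0.24 for day 4 against day 2 (SE 0.11, edgeR adjusted p = 0.111) and -0.22 from day 0 to day 4 (SE 0.11, edgeR adjusted p = 0.0781). The step from day 2 to day 4 was called in a fit of only those days (edgeR adjusted p = 0.0238), with total counts (0.0499) and without either day 0 library (0.0271 and 0.0274), and day 4 against day 0 without the second day 0 library (-0.32, edgeR adjusted p = 0.0102).

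Cnot6l (NM_001285514, chromosome 5 from 96070333 to 96164198), which encodes the close relative of CNOT6, had 45.7 and 43.4 CPM at day 0, 73.0 and 63.7 CPM at day 2, and 61.1 and 67.1 CPM at day 4. Days 2 and 4 overlapped and lay above day 0. Cnot6l rose 1.53-fold by day 2 (log2 fold change 0.62, SE 0.11, edgeR adjusted p = 0.000651) and was 1.44-fold above day 0 at day 4 (0.53, SE 0.11, edgeR adjusted p = 0.00138), with -0.09 between days 2 and 4 (SE 0.11, edgeR adjusted p = 0.564). Cnot6 counts exceeded Cnot6l counts 3.34 and 3.12 times in the day 0 libraries, 2.02 and 2.26 times at day 2, and 2.05 and 1.81 times at day 4. The log2 ratio shifted by -0.75 from day 0 to day 4 without overlap of libraries, again with the smallest possible exact permutation p of 0.333.

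Of the CAF1-type nucleases, Cnot7 rose and Cnot8 did not pass the threshold. Cnot7 (NM_011135, chromosome 8 from 40492538 to 40515847) was at 36.7 and 30.6 CPM at day 0, 47.7 and 43.4 CPM at day 2, and 53.2 and 54.7 CPM at day 4, so that the 3 days did not overlap. Day 2 against day 0 gave a log2 fold change of 0.44 (SE 0.12, edgeR adjusted p = 0.00851), 0.25 for day 4 against day 2 (SE 0.12, edgeR adjusted p = 0.143) and 0.68 from day 0 to day 4 (1.60-fold, SE 0.12, edgeR adjusted p = 0.000378). Without the first day 2 library, the early change was 0.37 and not called (edgeR adjusted p = 0.0918). The later step was called in fits of only days 2 and 4 or without either day 0 library (edgeR adjusted p = 0.0341 to 0.0359). Of 5821 exonic bases of Cnot7 in GENCODE, 247 lie opposite exons of Zdhhc2, and since the use of strand in counting is not given in the sources used here, reads of the 2 genes cannot be told apart there.

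Cnot8 (NM_026949, chromosome 11 from 58092794 to 58118597) had 39.3 and 41.1 CPM at day 0, 34.1 and 37.1 CPM at day 2, and 37.9 and 34.4 CPM at day 4. The later libraries lay slightly below day 0, and its log2 fold changes were -0.18 for day 2 against day 0 (SE 0.11, edgeR adjusted p = 0.193), 0.02 for day 4 against day 2 (SE 0.11, edgeR adjusted p = 0.899) and -0.15 from day 0 to day 4 (SE 0.11, edgeR adjusted p = 0.24). With 0.933 and 0.745 Cnot7 counts per Cnot8 count at day 0, 1.40 and 1.17 at day 2, and 1.40 and 1.59 at day 4, the order of the 2 counts turned over. The shift of the log2 ratio from day 0 to day 4 was 0.84 (exact permutation p = 0.333, the smallest possible).

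The pair of poly(A)-binding proteins moved less. There were 10.2 and 13.6 Pabpc1 counts per Pabpc4 count at day 0, 13.3 and 11.5 at day 2, and 13.8 and 15.2 at day 4. The log2 ratio at day 4 was above day 0 by 0.29, beside a SD between the day 0 libraries of 0.29, and both day 4 libraries lay above both of day 0 (exact permutation p = 0.333, the smallest possible).

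Tob1 (NM_009427, chromosome 11 from 94209842 to 94215495), which encodes an antiproliferative protein of the BTG/TOB family, was at 15.0 and 14.3 CPM at day 0, 24.9 and 29.8 CPM at day 2, and 28.5 and 26.9 CPM at day 4. Days 2 and 4 overlapped, and each library of either lay well above day 0. Tob1 rose 1.87-fold by day 2 (log2 fold change 0.90, SE 0.13, edgeR adjusted p = 0.000125), the largest early rise of the 10 genes, and was 1.89-fold above day 0 at day 4 (0.92, SE 0.13, edgeR adjusted p = 6.57e-05). Between days 2 and 4 its log2 fold change was 0.02 (SE 0.13, edgeR adjusted p = 0.932).

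Parn (NM_028761, chromosome 16 from 13537964 to 13668198) had 30.7 and 38.7 CPM at day 0, 52.8 and 51.0 CPM at day 2, and 49.2 and 47.9 CPM at day 4. Both later days lay above day 0, and day 2 was highest. Its log2 fold change was 0.58 by day 2 (1.49-fold, SE 0.13, edgeR adjusted p = 0.00202) and 0.48 by day 4 (1.40-fold, SE 0.13, edgeR adjusted p = 0.00484), with -0.10 between days 2 and 4 (SE 0.12, edgeR adjusted p = 0.587). The change by day 4 was 0.32 without the first day 0 library, at 30.7 CPM, and 0.65 without the second (edgeR adjusted p = 0.012 and 6.31e-05).

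A GATA word, the motif of the erythroid factor GATA1, lies in the 250 upstream bases of Tob1 and Parn. None was found for the others of the 8 genes with a listed promoter, among them Pan3 and Cnot6l, which also rose by day 2. The windows of Tob1 and Parn are chr11:94211204-94211453 on the plus strand and chr16:13668171-13668420 on the minus strand (RefSeq, GRCm38.p6, written 5′ to 3′ along the gene). That of Tob1 lies inside the span of the gene but in no GENCODE exon, and capitals mark each match of a GATA word, GC box or TATA box on either strand.
Tob1: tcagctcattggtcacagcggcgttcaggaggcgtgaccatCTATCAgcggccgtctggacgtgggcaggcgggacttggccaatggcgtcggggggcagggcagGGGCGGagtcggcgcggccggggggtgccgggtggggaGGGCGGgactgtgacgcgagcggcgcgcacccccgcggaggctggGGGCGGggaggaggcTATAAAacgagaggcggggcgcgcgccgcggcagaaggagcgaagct
Parn: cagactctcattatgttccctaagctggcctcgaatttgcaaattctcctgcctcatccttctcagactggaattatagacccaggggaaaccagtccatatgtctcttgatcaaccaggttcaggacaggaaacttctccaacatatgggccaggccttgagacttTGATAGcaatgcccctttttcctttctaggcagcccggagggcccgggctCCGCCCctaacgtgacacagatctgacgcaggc

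The GATA word begins 209 bases upstream of the start in Tob1, on the minus strand, and 83 bases upstream in Parn. Tob1 also held 3 GC boxes and 1 TATA box, and Parn held 1 GC box. The window of Pabpc4, called lower at day 4, likewise held 3 GC boxes and 1 TATA box. Cnot6, Cnot6l and Cnot8 also had windows with a GC box. A match of 6 letters is a description of these windows, and 26.5% of all promoters hold a GATA word, and binding was not measured in these libraries.

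**Figure D3:**
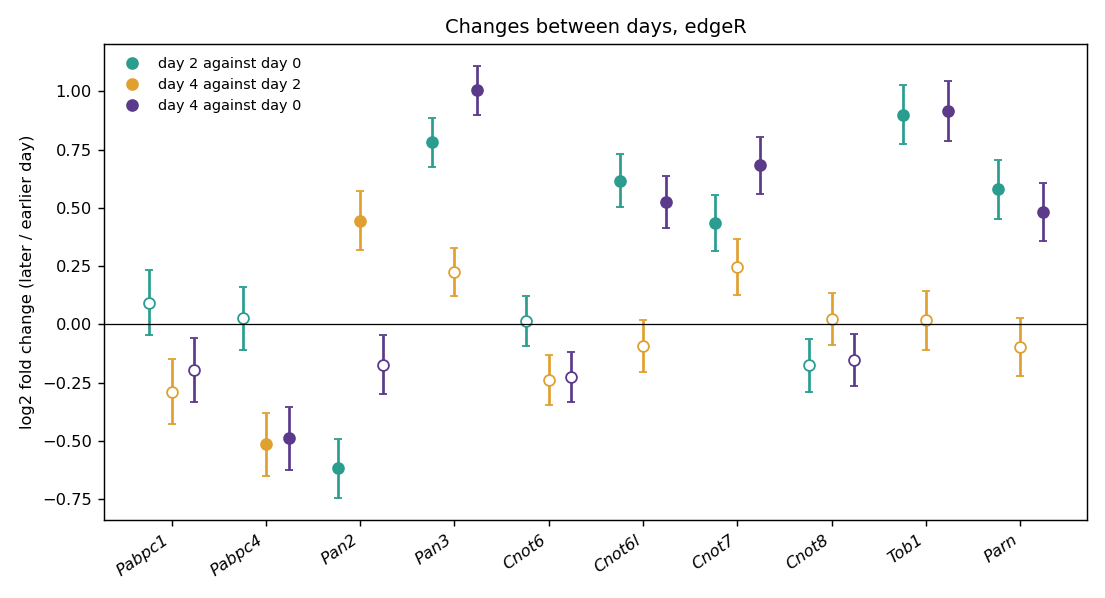
Log2 fold change between days (y axis) for each of the 10 genes (x axis), with standard errors as bars and a colour for each comparison. Filled points passed an edgeR adjusted p below 0.05 and open points did not, and the filled points above 0 belong to Pan3, Cnot6l, Cnot7, Tob1, Parn and, for day 4 against day 2, Pan2.

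Between genes, levels were compared per kilobase, with transcript lengths from the GENCODE entries matched to the RefSeq accessions. Cnot6 and Cnot6l match entries of unequal length (2498 to 5736 and 3170 to 8564 bases), so their levels are ranges. At day 0, Pabpc1 stood at 931 ± 68.4 CPM per kilobase (SD, n = 2), above Pabpc4 at 73.7 to 82.4. Cnot6 followed at 25.1 to 57.7 and Cnot8 at 19.8 ± 0.597 (SD, n = 2). Pan2 (13.8 to 14.2), Cnot7 (12.9 to 13.7), Pan3 (12.2 ± 0.959, SD, n = 2) and Parn (11.9 ± 1.96, SD, n = 2) were not separated beyond the spread of their libraries. Cnot6l, at 5.20 to 14.1, could not be placed against them, and Tob1 was at 6.41 ± 0.223 (SD, n = 2).

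At day 4, Pabpc1 (812 ± 51.2 CPM per kilobase, SD, n = 2) was still the highest. Pabpc4 (52.5 to 58.7) came next. Cnot6 (21.5 to 49.4) overlapped it between libraries where Cnot6 is taken at its shortest and Pabpc4 at its longest length. At its longest length, Cnot6 lay below Pan3 and within the range of Cnot7, so its place is uncertain. Pan3 (24.5 ± 0.853, SD, n = 2) and Cnot7 (20.6 to 21.9) lay above Cnot8 (17.8 ± 1.23, SD, n = 2) and Pan2 (12.2 to 12.6). Parn at 16.7 ± 0.327 (SD, n = 2) was within the spread of Cnot8, and Tob1 at 12.1 ± 0.485 (SD, n = 2) within that of Pan2. Cnot6l, at 7.49 to 20.2, could not be placed against the genes below Pan3.

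**Figure D4:**
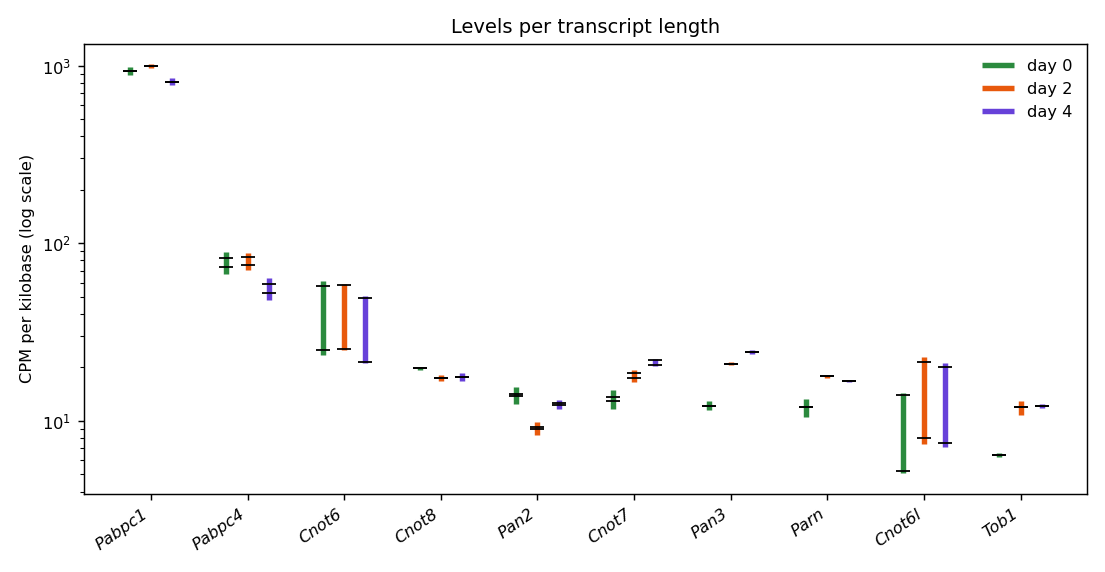
CPM per kilobase (y axis, log scale) of the 10 genes, ordered by day 0 (x axis), with a vertical line per day from the lowest library at the longest matched transcript length to the highest library at the shortest, and black ticks at the mean for each length. Pabpc1 lies near 931 at day 0, and the long lines of Cnot6 and Cnot6l come from their unequal matched lengths.

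Likeness of pattern was searched over 10444 tested genes outside the group with a mean log2 CPM no lower than 1. Those whose log2 CPM, centred on its mean, lay closest to Pan3 over the 6 libraries were Dcaf10, Rnf6 and Serinc1, at Euclidean distances of 0.058, 0.087 and 0.091. The closest to Pabpc4, the gene with the largest fall by day 4, were Nkrf, Tkfc and Aldh7a1, at 0.101, 0.126 and 0.158.

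Among the other subunits of CCR4-NOT, 8 were tested, and 2 were higher and 2 lower at day 4 relative to day 0. Over all tested genes 35.5% were higher and 36.4% lower, and the median log2 fold change of these 8 was -0.09. Cnot4, a ubiquitin ligase, was higher (0.87, SE 0.12, edgeR adjusted p = 5.67e-05), and so was Cnot3 (0.39, edgeR adjusted p = 0.0107), though not without either day 4 library (edgeR adjusted p = 0.0573 and 0.0548). Cnot9, which binds recruiting proteins, went from 86.5 and 89.8 CPM at day 0 to 42.9 and 45.6 at day 4 (-0.99, SE 0.10, edgeR adjusted p = 5.85e-06). Cnot11 was also called lower (-0.37, edgeR adjusted p = 0.0378), a call that was lost with total counts, with only the 2 days compared and without any single library of days 0 to 4 other than the second of day 0 (edgeR adjusted p = 0.0691 to 0.252). Cnot1, the scaffold of the complex, had 507 and 441 CPM at day 0 and 405 and 423 at day 4 (-0.20, edgeR adjusted p = 0.16).

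Among 6 further genes listed as deadenylases or their relatives, 2 were higher and 3 lower at day 4 relative to day 0. Over all tested genes these shares were 35.5% and 36.4%. Whether each of the 6 removes poly(A) tails was not tested. Toe1, a nuclear deadenylase, fell (log2 fold change -1.13, SE 0.13, edgeR adjusted p = 1.22e-05), as did the mitochondrial enzyme Pde12 (-0.87, edgeR adjusted p = 3.24e-05) and Angel2 (-0.53, edgeR adjusted p = 0.00217). Angel1 rose by 0.88 (edgeR adjusted p = 0.00033) and Noct, also known as nocturnin, by 0.56 (edgeR adjusted p = 0.000709).

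Genes listed as recruiters of deadenylases to an mRNA formed the list with the highest median, and recruitment itself was not measured. Of 22 tested recruiters, 13 were higher at day 2 and 15 at day 4 against day 0, beside 31% and 35.5% of all tested genes, and none was lower in edgeR, also at an unadjusted p below 0.05 (0 genes) and in DESeq2 (0 genes). Between days 2 and 4, 6 were higher and Pum2, an RNA-binding repressor, was lower (-0.32, edgeR adjusted p = 0.0496). At this step 14% of all tested genes were higher and 16.2% lower. With the replicate block, 5 recruiters were higher and 0 lower. The median log2 fold change of the 22 recruiters for day 4 against day 0 was 0.84, beside -0.02 over all tested genes. Cpeb4, a binder of cytoplasmic polyadenylation elements, went from 11.8 and 10.8 CPM at day 0 to 88.4 and 90.5 at day 2 and 243 and 302 at day 4 (4.59, SE 0.14, edgeR adjusted p = 6.88e-09). Btg2, a relative of Tob1, rose from 9.34 and 11.8 CPM to 130 and 137 at day 4 (3.66, SE 0.14, edgeR adjusted p = 1.24e-08). Samd4 had only 1 and 4 counts at day 0, against 14 and 20 at day 4 (2.86, SE 0.56, edgeR adjusted p = 0.00081). In the rest of the BTG/TOB family, Btg3 was higher at day 4 (0.54, edgeR adjusted p = 0.00617), whereas Tob2 (0.05, edgeR adjusted p = 0.737) was not called. Btg1 was higher at day 2 (0.51, edgeR adjusted p = 0.00452) and not called at day 4 (0.22, edgeR adjusted p = 0.13).

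Of 11 tested partners of poly(A)-binding protein, 2 were higher and 5 lower at day 4 relative to day 0. The shares over all tested genes were 35.5% and 36.4%. Eif4g1, the initiation factor that links the tail to the cap, went from 919 and 829 CPM at day 0 to 467 and 467 at day 2 and 480 and 492 at day 4 (log2 fold change -0.85, SE 0.12, edgeR adjusted p = 6.53e-05). The translation termination factor Gspt1 fell by 1.32 on the log2 scale (edgeR adjusted p = 1.45e-06) and the deubiquitinase Usp10 by 0.63 (edgeR adjusted p = 0.000223). Paip1, a poly(A)-binding protein partner that stimulates translation, rose (0.76, edgeR adjusted p = 6.71e-05), and so did Mkrn1 (1.29, edgeR adjusted p = 3.24e-06).

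Enzymes that add nucleotides to 3′ ends were mixed, with 5 higher and 4 lower of 13 tested for day 4 against day 0. These counts stand beside 35.5% higher and 36.4% lower among all tested genes. The canonical poly(A) polymerase Papola went from 202 and 185 CPM at day 0 to 132 and 125 at day 4 (log2 fold change -0.59, SE 0.11, edgeR adjusted p = 0.000519), while its relative Papolg rose (0.99, edgeR adjusted p = 1.85e-05). Tent5c, a cytoplasmic poly(A) polymerase, rose by 1.41 (edgeR adjusted p = 9.94e-06) and the uridylating enzyme Tut7 by 1.39 (edgeR adjusted p = 8.62e-07). Tut1, which uridylates U6 RNA, was lower (-0.67, edgeR adjusted p = 0.000504), as was the low-level Tent5d (-2.46, edgeR adjusted p = 4.14e-06).

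Genes that act after deadenylation are read beside the 35.5% of all tested genes that were higher and the 36.4% that were lower. Of 19 genes of decapping and 5′ decay, 4 were higher and 11 lower at day 4 relative to day 0 (median log2 fold change -0.44), and of 16 genes of the exosome and Ski complex, 3 were higher and 13 lower (median -0.82). In the first list Lsm3 (-2.11, edgeR adjusted p = 6.05e-08), Dcps (-2.07, edgeR adjusted p = 2.32e-07) and Lsm4 (-1.45, edgeR adjusted p = 3.85e-06) fell most, and LSM proteins also serve in splicing. The decapping factor Dcp1a (0.61, edgeR adjusted p = 0.00124), the exonuclease Xrn1 (0.60, edgeR adjusted p = 0.000623) and the helicase Ddx6 (0.56, edgeR adjusted p = 0.000724) were higher.

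In the exosome list, Exosc2 (log2 fold change -2.06, edgeR adjusted p = 4.65e-08), Exosc3 (-1.85, edgeR adjusted p = 3.19e-07) and the nuclease Dis3 (-1.80, edgeR adjusted p = 1.32e-07) fell most. The Ski helicase Skiv2l was higher (0.76, edgeR adjusted p = 5.28e-05). Dis3l (0.41, edgeR adjusted p = 0.013) and Hbs1l (0.34, edgeR adjusted p = 0.009) were higher too, and both calls were lost without the second day 4 library (edgeR adjusted p = 0.115 and 0.0599). The exosome is also needed to process ribosomal RNA.

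**Figure D5:**
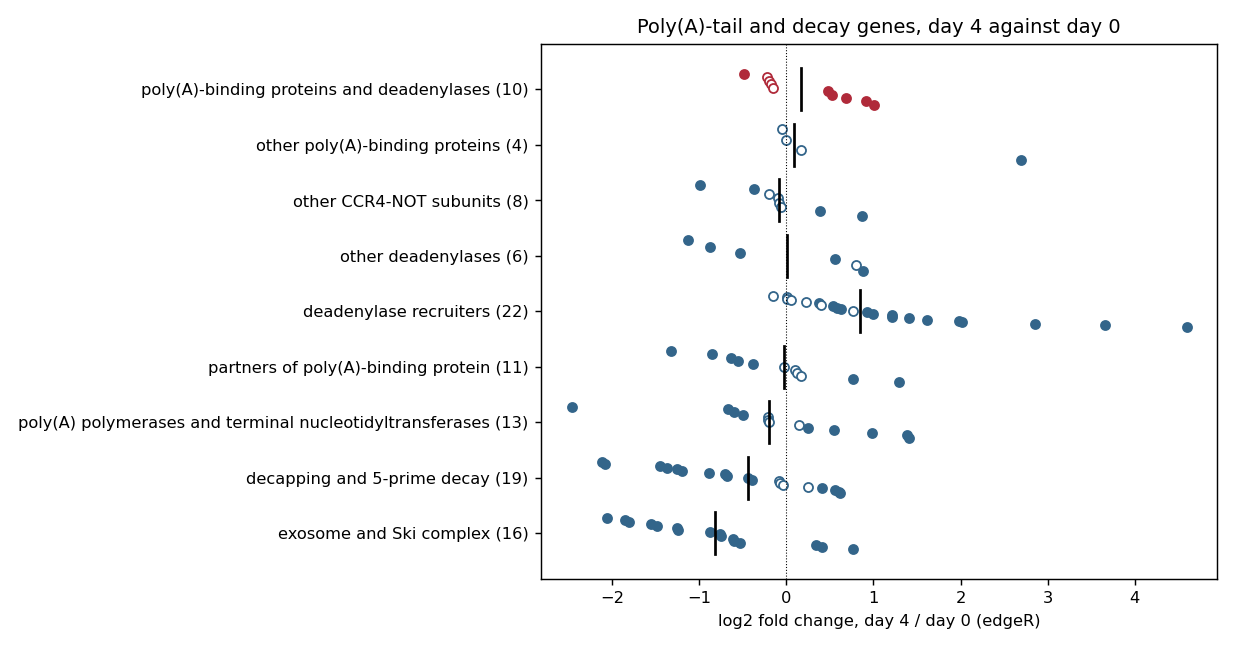
Log2 fold change of day 4 against day 0 (x axis) for the 10 genes (red) and for 8 lists of other genes of the poly(A) tail and mRNA decay (blue, y axis, number tested in brackets), with filled points for an edgeR adjusted p below 0.05, open points for the rest and a black bar at each median. The recruiters lie mostly to the right, with a median of 0.84, and the exosome and Ski genes mostly to the left, with a median of -0.82.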

How the data were processed

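mRNA-seq libraries of MEL cells at days 0, 2 and 4 of DMSO, with 2 replicates per day, were grouped by their labels. The authors trimmed adapters with cutadapt, aligned reads to mm10 with TopHat (HTSeq and DESeq2 are also listed in the submitters' processing notes) and deposited raw counts for each RefSeq transcript, without normalization or pooling. The alignment was run as stranded and kept several hits per read, while the strand and overlap settings of the counting step and the annotation release are not given in the sources used here. Reads on no transcript (50.5% to 58.4% of their sum with the transcript counts) were left out. Transcripts of one gene often had near-equal counts, so they are not separate measurements.

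Symbols came from RefSeq (32199 of 32654 transcripts) and GENCODE (187). Counts were fitted with edgeR 4.0.16 (R 4.3.3) using TMM factors, filterByExpr and a single quasi-likelihood fit of the 6 libraries with a mean per day. Each standard error is the fold change (log2) over the root of its F statistic. CPM use TMM-scaled library sizes. DESeq2 1.42.0, other scalings, no filter, only the 2 days compared, a replicate block, another transcript and leaving out each library were tried as alternatives. The genes, lists and tests were chosen with earlier results of these data known. Named genes outside the group are the 3 largest called rises and falls of each list for day 4 against day 0 and the 3 closest patterns to the genes that rose and fell most, while Pabpn1, Cnot1, Btg1, Btg3, Tob2 and Pum2 were added after their values were seen.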

Additional observations from a re-analysis of the deposited data

How the results depend on the processing

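The rises of Pan3, Cnot6l, Tob1 and Parn, against day 0 at both later days, the rise of Cnot7 by day 4 and the early fall of Pan2 kept their direction and their call in all alternatives tried. The step from day 2 to day 4 was less stable. In place of 1 gene of the 10 higher and 1 lower, total counts gave 0 and 2, only the 2 days compared gave 3 and 3, and DESeq2 gave 2 lower. At an unadjusted p below 0.05, 1 was higher and 2 lower. Leaving out single libraries gave 0 to 3 in each direction, and for day 4 against day 0 it gave 0 to 3 lower genes (0 without the second day 4 library, 3 without the second day 0 library, which added Pan2 and Cnot6). Of the 99 other genes tested, 12 higher and 17 lower at this step became 7 higher with total counts and 21 higher with only the 2 days compared, and 2 to 21 higher and 3 to 23 lower with single libraries left out, where the lone library of a day is assumed to vary like the others. The cause was not tested, though total counts move the median of all genes by 0.21 for day 2 against day 0 and by -0.09 and 0.10 for the other comparisons. Under total counts, genes higher and lower went from 3841 and 3902 to 5001 and 2881 at day 2 against day 0, and from 1739 and 2010 to 1228 and 2532 at day 4 against day 2.

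Log2 fold changes that turned sign were all uncalled and small. For day 2 against day 0, Pabpc4 was at -0.001 with DESeq2 and -0.004 with relative log expression factors, and between -0.108 and 0.161 with single libraries left out. Cnot6 was at -0.011 and -0.014 in the same fits and between -0.077 and 0.102 with single libraries left out, and Cnot8 at 0.022 with total counts. For day 4 against day 2, total counts gave -0.06 for Cnot8 and -0.066 for Tob1, and single libraries left out gave -0.191 to 0.008 for Cnot6l, -0.052 to 0.089 for Cnot8 and -0.109 to 0.151 for Tob1. The shifts of the pair ratios from day 0 to day 4, with single libraries of those days left out, ranged from 0.088 (without the first day 0 library) to 0.50 (without the second) for Pabpc1 to Pabpc4, -0.84 to -0.65 for Cnot6 to Cnot6l, 0.68 to 1.00 for Cnot7 to Cnot8 and -1.24 to -1.11 for Pan2 to Pan3.

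Within each day, the difference of replicate 2 minus replicate 1 was taken for each tested transcript. Between days, these differences correlated by 0.03 for days 0 and 2, 0.02 for days 0 and 4 and 0.14 for days 2 and 4. Nothing in the labels ties the replicate numbers to shared batches. With the replicate block, 5 of the 10 genes were higher and 1 lower at day 2 and at day 4 against day 0, and 1 each at day 4 against day 2, as without it, and the other genes gave 9 higher and 16 lower at that step. Poly(A) selection acts on the tails that these genes bind or shorten, and its part in the counts was not tested.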
